A study of Mus musculus with 12 samples.

Results

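The nuclear genes for the subunits of oxidative phosphorylation were examined for binding of the transcription factors HIF1A and ARNT in N1E115, a cell line from a mouse neuroblastoma in which, per the labels, the neuronal nitric oxide synthase NOS1 is present. The genes were chosen by symbol alone: genes for proteins on the autosomes (1 to 19) and X whose names begin with Ndufa, Ndufb, Ndufc, Ndufs, Ndufv, Sdh, Uqcr, Cox4 to Cox8 or Atp5, without Ndufa4l2, Cox4i2 and the assembly factors. This gave 86 of 21631 protein-coding genes, of which 40 belong by prefix to complex I, 4 to complex II, 8 to complex III, 17 to complex IV and 17 to complex V. Chromatin immunoprecipitation with sequencing (ChIP-seq) was done with a HIF1A or an ARNT antibody on cells kept for 3 days at 20% or 4% O2, all with 5% CO2 at ambient pressure. Each of these 4 groups had 2 deposited peak lists, called against input chromatin from cells kept at the same oxygen level. The cells are a single tumour line, and the labels do not say whether the replicates were separate cultures, so the tests below take the spread from these samples alone, and that spread may be technical.

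In the inner mitochondrial membrane, complexes I to IV pass electrons from NADH and succinate to oxygen. Complex V, the ATP synthase, uses the resulting proton gradient across the membrane to make ATP. Most of their subunits are encoded in the nucleus and the rest in mitochondrial DNA. HIF-1 is the dimer of HIF1A, which is degraded when oxygen is plentiful, and ARNT, its constitutive partner, which also pairs with other factors. In low oxygen HIF-1 is known for raising glycolytic genes and for changing isoforms of a few respiratory subunits, among them the replacement of Cox4i1 by Cox4i2 with the help of the protease Lonp1.

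A gene was counted as having a peak when a peak lay within 5 kb of either of its ends. A reproducible region was a stretch with overlapping peaks in both lists of a group. The score of a peak is the authors' own value on a scale that no file header names, so it is used only within its list, with its percentile rank there (100 for the highest). The lists held between 1808 and 42701 peaks. Reads are not counted in them, which leaves the depth unknown, and a longer list can come from deeper sequencing as well as from more binding. All replicate 1 libraries shared a lane of a single flow cell, and in the HIF1A replicate 2 lists each peak is a single base, widened here by 100 bp on each side.

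The promoters of the genes on which the results turn are shown here 5′ to 3′, as RefSeq gives them for GRCm38.p6 (the build also called mm10), from 250 bases before to 50 bases after a listed transcription start. Capitals mark ACGTG or GCGTG, the letters of the HIF-1 core site, on either strand (on the reverse strand they read CACGT or CACGC). Ndufv3, Cox7a1 and Sdhb had the highest promoter regions among their complexes at 4% O2, Atp5b had ARNT regions at both oxygen levels, Ndufb5 and Ndufa10 were high at 20% O2, and Ndufa4 had no peak at all.
Ndufv3, chr17:31519865-31520164, plus strand: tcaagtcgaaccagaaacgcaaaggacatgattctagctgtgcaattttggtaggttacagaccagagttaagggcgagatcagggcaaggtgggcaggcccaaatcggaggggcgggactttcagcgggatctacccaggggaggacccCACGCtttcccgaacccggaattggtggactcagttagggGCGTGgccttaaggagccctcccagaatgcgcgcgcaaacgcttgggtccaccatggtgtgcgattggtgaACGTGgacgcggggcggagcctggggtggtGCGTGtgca
Cox7a1, chr7:30183921-30184220, plus strand: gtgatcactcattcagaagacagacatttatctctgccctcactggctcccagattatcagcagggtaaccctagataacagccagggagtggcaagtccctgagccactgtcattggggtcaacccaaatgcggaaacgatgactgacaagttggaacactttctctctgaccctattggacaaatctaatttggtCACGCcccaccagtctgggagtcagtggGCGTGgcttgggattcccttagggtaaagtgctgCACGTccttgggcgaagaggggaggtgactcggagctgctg
Sdhb, chr4:140961021-140961320, plus strand: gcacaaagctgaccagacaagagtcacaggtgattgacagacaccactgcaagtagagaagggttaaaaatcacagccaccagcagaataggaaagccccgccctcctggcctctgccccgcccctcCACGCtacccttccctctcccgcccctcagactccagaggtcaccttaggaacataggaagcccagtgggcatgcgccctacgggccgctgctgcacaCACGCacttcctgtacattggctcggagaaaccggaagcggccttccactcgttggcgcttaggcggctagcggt
Atp5b, chr10:128083057-128083356, plus strand: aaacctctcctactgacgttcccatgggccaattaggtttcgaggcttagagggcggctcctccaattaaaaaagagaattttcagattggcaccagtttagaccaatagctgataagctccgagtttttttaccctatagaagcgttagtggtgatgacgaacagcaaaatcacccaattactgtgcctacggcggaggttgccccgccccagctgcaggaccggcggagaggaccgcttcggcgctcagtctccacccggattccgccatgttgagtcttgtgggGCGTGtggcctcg
Ndufb5, chr3:32736813-32737112, plus strand: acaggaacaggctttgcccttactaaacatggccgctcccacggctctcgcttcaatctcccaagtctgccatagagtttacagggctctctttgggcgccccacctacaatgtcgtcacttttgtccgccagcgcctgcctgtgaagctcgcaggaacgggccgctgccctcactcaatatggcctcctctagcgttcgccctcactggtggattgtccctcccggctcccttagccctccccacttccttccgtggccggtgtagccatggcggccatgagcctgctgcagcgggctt
Ndufa10, chr1:92473709-92474008, minus strand: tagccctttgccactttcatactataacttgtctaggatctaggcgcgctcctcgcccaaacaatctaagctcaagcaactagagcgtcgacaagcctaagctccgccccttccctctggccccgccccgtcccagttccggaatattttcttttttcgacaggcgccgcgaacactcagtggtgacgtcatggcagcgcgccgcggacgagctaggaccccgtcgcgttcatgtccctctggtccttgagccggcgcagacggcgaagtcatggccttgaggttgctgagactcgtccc
Ndufa4, chr6:11907401-11907700, minus strand: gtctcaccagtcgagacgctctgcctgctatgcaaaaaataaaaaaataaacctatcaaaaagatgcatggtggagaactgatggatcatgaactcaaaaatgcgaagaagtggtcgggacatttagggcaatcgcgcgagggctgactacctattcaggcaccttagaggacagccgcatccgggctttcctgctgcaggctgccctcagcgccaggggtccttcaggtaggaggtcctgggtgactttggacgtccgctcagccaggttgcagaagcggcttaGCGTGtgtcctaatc

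Of the 86 genes, 32 had a reproducible HIF1A region at 4% O2, which is 37.2% (95% Wilson interval 27.7% to 47.8%) against 24.7% of all protein-coding genes. An ARNT region at 4% O2 was found for 24 genes, or 27.9% (19.5% to 38.2%), against 20.6% of all genes. At 20% O2, HIF1A regions lay at 8 genes, or 9.30% (4.79% to 17.3%), against 4.21% of all genes. ARNT regions at 20% O2 lay at 4 genes, or 4.65% (1.82% to 11.4%), against 4.39% of all genes, which is close to the background. These intervals cover the counting of genes only, and genes are not replicates. Leaving out replicate 2 raised the counts at 4% O2 to 65 (HIF1A) and 61 (ARNT) and that of ARNT at 20% O2 to 22, and leaving out replicate 1 raised that for HIF1A at 20% O2 to 34. In all, 40 of the 86 genes had a region in at least 1 group (46.5%, beside 30.2% of all genes), and 46 had none (53.5%, beside 69.8%).

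At 4% O2 the regions at these genes ranked about as high in the lists as those at all genes with a region. The mean percentile rank of a gene's highest region had a median of 68.3 over the 32 genes with a HIF1A region at 4% O2, beside 72.3 over all genes with one. For ARNT at 4% O2 the medians were 65.2 and 65.7. A mean rank of 90 or more was reached by 7 of the 32 genes (21.9%), beside 1174 of 5340 genes overall (22.0%). For comparison, 20 of 22 genes of glycolysis had a HIF1A region at 4% O2, with a median rank of 99.8, and 17 of the 20 ranked at 90 or above. Among the 8 genes with a HIF1A region at 20% O2 the median rank was 90.6, beside 68.0 over all such genes.

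**Figure D1:**
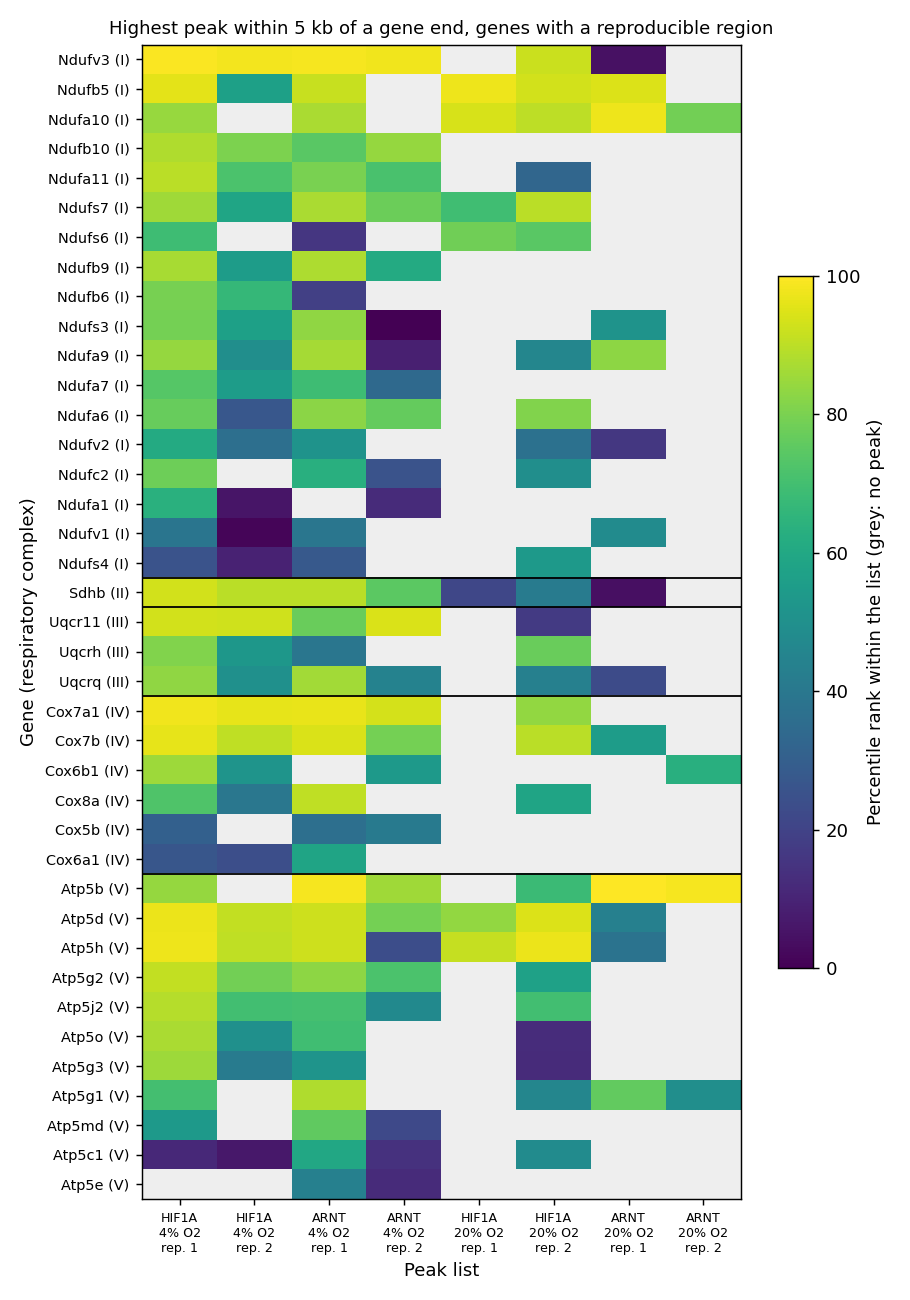
Percentile rank of the highest peak within 5 kb of a gene end in each of the 8 lists (columns) for the reported genes that had a region in at least 1 group (rows, grouped by respiratory complex I to V). Ranks are within a list, so colours show standing in each list and not a change between lists. Ndufv3 and Cox7a1 are high in all 4 lists at 4% O2, Atp5b is high in all 4 ARNT lists, and Ndufb5 and Ndufa10 are high in the HIF1A lists at 20% O2.

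In single lists the share of these genes with a peak differed widely between the replicates of a group. With HIF1A at 4% O2, 65 genes (75.6%) had a peak in replicate 1 and 32 (37.2%) in replicate 2, beside 47.7% and 25.2% of all genes. With ARNT at 4% O2 the counts were 61 (70.9%) and 27 (31.4%), beside 38.6% and 27% of all genes. HIF1A at 20% O2 gave 9 (10.5%) and 34 (39.5%), beside 4.7% and 21.6%. ARNT at 20% O2 gave 22 (25.6%) and 5 (5.81%), beside 13.8% and 4.72%. The share lay above that of all genes in each of the 8 lists, by a factor between 1.16 and 2.23.

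Whether oxygen changed the share was tested on the log2 share per list, with the labels of oxygen exchanged within each antibody. The share was 3.07 times as high at 4% as at 20% O2, a log2 difference of 1.62 ± 1.26 (SD of 4 differences between lists of the same number), with 3 of 4 differences in that direction, and the two-sided exact permutation test gave p = 0.111 (adjusted p = 0.444 over 4 tests). The smallest p that its 36 arrangements allow is 0.0556. The exception was HIF1A replicate 2, at -0.09, whereas HIF1A replicate 1 differed by 2.79. ARNT replicate 2 differed by 2.32 between lists from different flow cells, so oxygen and flow cell cannot be told apart there. Relative to the share of all genes in the same list, the share at 4% O2 was 0.828 times that at 20% O2, a log2 difference of -0.27 ± 0.22 (SD, n = 4), lower in 4 of 4 differences, with an exact permutation p of 0.222 (adjusted p = 0.444). HIF1A and ARNT lists differed by 0.43 ± 1.62 in log2 share (SD, n = 4; exact permutation p = 0.5, adjusted p = 0.5), and by 0.22 ± 0.30 relative to all genes (exact permutation p = 0.333, adjusted p = 0.444). No difference in share passed the test, and this design could not have passed it at 0.05. The SDs and the counts of differences match lists by replicate number. The labels do not state such a pairing, and these tests do not use it.

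**Figure D2:**
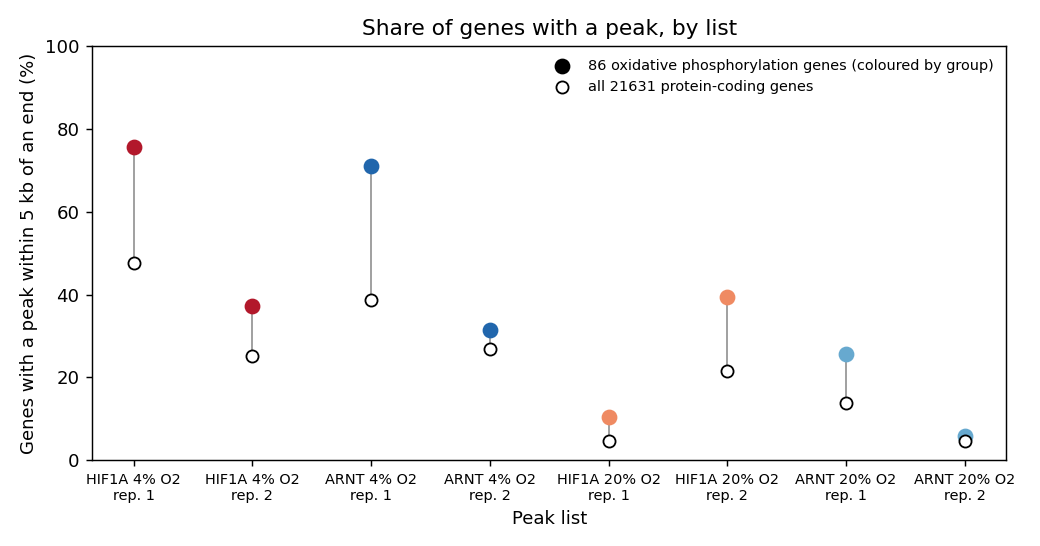
Percent of genes with a peak within 5 kb of an end in each of the 8 peak lists, for the 86 oxidative phosphorylation genes (filled, coloured by group) and all 21631 protein-coding genes (open). The filled points lie above the open ones in each list and run from 5.81% to 75.6%, and lists of the same group lie far apart.

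Many of these genes are short and lie close to other genes, so a region near one of them is often nearer to a neighbour. Of the 86 genes 68 (79.1%) had an end of another protein-coding gene within 5 kb, beside 46.5% of all genes, and their median length was 7106.5 bp, beside 17329 bp. At 4% O2 the 32 genes with a HIF1A region had 44 such regions, and for 23 of these the nearest gene end belonged to a neighbour, leaving 47.7% nearest to the gene itself, beside 74.2% over all genes. Counting only regions nearest to the gene's own end left 18 genes with HIF1A at 4% O2 (20.9%, beside 19.5% of all genes) and 14 with ARNT at 4% O2 (16.3%, beside 15.7%). At 20% O2 it left 3 genes for each antibody, beside 3.32% of all genes for HIF1A and 3.08% for ARNT. The excess over all genes was thus small by this count, which was chosen after the values were seen. It was larger on promoters: a HIF1A region at 4% O2 overlapped the 300-base promoter window of 19 of the 71 genes that have one (26.8%, beside 15.1% of all genes), and an ARNT region that of 16 (22.5%, beside 13.5%). At 20% O2 the promoter counts were 4 of 71 for HIF1A (5.63%, beside 1.59%) and 3 of 71 for ARNT (4.23%, beside 2.84%). Ribosomal protein genes also had promoter shares above those of all genes at 4% O2. For HIF1A they were 27.5% (mitochondrial) and 27.3% (cytosolic), and for ARNT 23.2% and 18.2%. Within 5 kb of a listed start, HIF1A regions lay at 24 of the 71 genes at 4% O2 (33.8%, beside 21.8%) and ARNT regions at 19 (26.8%, beside 18.5%). At 20% O2 they lay at 6 genes (8.45%, beside 3.3%) and 3 genes (4.23%, beside 3.83%). A window shared by a pair of genes that start back to back counts for both.

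**Figure D3:**
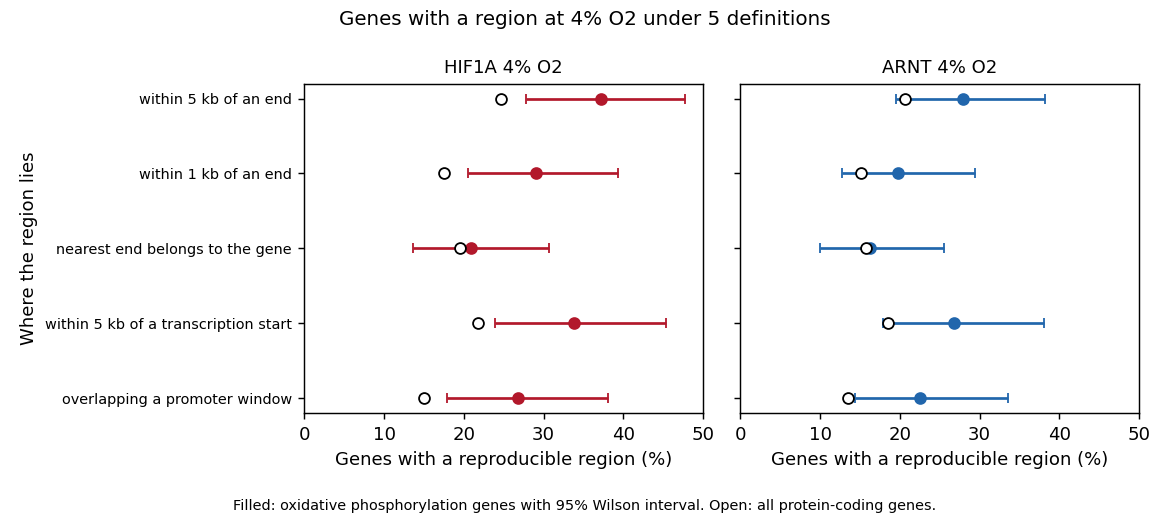
Percent of genes with a reproducible region at 4% O2 under 5 definitions of where the region must lie (rows), for HIF1A (left) and ARNT (right). Filled points are the oxidative phosphorylation genes with 95% Wilson intervals, and open points are all protein-coding genes. The 2 kinds of point nearly coincide where the nearest end must belong to the gene (20.9% and 19.5% for HIF1A) and lie farthest apart, as a ratio, at promoter windows (26.8% and 15.1%).

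Complex I, the NADH dehydrogenase, had HIF1A regions at 4% O2 at 16 of its 40 genes (40%, beside 24.7% of all genes) and ARNT regions at 10 (25%, beside 20.6%). At 20% O2 it had 5 genes with HIF1A (12.5%, beside 4.21%) and 2 with ARNT (5%, beside 4.39%). The highest of all 86 genes was Ndufv3, an accessory subunit of the module that oxidises NADH. Its HIF1A region at 4% O2, chr17:31519737-31521236, was 1500 bp long, covered the transcription start and scored 315 in replicate 1 (rank 99.4) and 256 in replicate 2 (rank 98.2). The ARNT region at the same place scored 120 and 321 (ranks 98.7 and 97.8). At 20% O2, single peaks scored 27.9 in HIF1A replicate 2 (rank 91.9) and 3.34 in ARNT replicate 1 (rank 4.65), and neither group had a reproducible region there. The promoter window of Ndufv3 held 4 core sequences, whose first bases lie 100 and 60 bases before the start and 11 and 41 after it. Wdr4, a gene for a tRNA methyltransferase subunit, also ends within 5 kb.

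The other complex I regions at 4% O2 ranked lower. Ndufa11, an accessory subunit in the membrane arm, had a HIF1A region with ranks of 89.6 and 71.8 and an ARNT region with 79.7 and 71.4, both nearer to the end of Vmac. Ndufb10, another membrane-arm subunit, had a HIF1A region with ranks of 87.9 and 80.4, which lay 891.5 bp from the end of Rpl3l and 4294.5 bp from its own. For Ndufb9 the HIF1A ranks were 87.0 and 55.1, and the region lay 34 bp from its end and 11 bp from that of Tatdn1. In these 3 genes the nearest end was therefore a neighbour's, and the lists do not tell which gene the regions serve. Ndufa9, a subunit near the ubiquinone-binding module, had a region 7 bp from its own start, with HIF1A ranks of 84.3 and 49.5 and ARNT ranks of 86.5 and 8.75. Ndufa6, Ndufa7, Ndufb6 and Ndufa1 also had HIF1A regions at 4% O2 whose nearest end was a neighbour's (Smdt1, Rps28, Topors and Rnf113a1).

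The 7 core subunits of complex I carry its redox centres and are conserved from bacteria. Of these 7 genes, 5 had a HIF1A region at 4% O2 (71.4%, Wilson interval 35.9% to 91.8%, beside 24.7% of all genes). None of the 5 reached a mean rank of 90 or more, beside 22.0% of all genes with such a region. A count of 5 genes is too small to set them apart in rank. Ndufs3 had HIF1A ranks of 79.2 and 57.0 at 4% O2, and the region lay 3 bp from the end of Kbtbd4 and 16 bp from that of Ndufs3. Ndufs7, an iron-sulphur subunit next to the ubiquinone site, had 3 HIF1A regions at 4% O2, the highest with ranks of 85.8 and 48.0 and nearest to Dazap1. In Ndufv2 and Ndufv1, which hold an iron-sulphur cluster and the flavin, the ranks at the start were 61.1 and 6.22, and 38.9 and 1.19. Ndufs1 had a peak in HIF1A replicate 1 at 4% O2 alone (rank 54.7), and Ndufs8 a peak in ARNT replicate 1 at 4% O2 alone (rank 11.7). The peaks at Ndufs1 and Ndufs8 were thus not repeated in a second list of any group.

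Complex I genes with regions at 20% O2 included accessory subunits. Ndufb5, a membrane-arm subunit, had HIF1A scores at 20% O2 of 40.6 and 30.4 (ranks 97.5 and 93.4), between its start and that of Mrpl47, a mitochondrial ribosomal protein gene. At 4% O2 its HIF1A scores were 84.5 and 14.2 (ranks 95.7 and 56.9). Its promoter window holds neither core sequence.

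Ndufa10, an accessory subunit related to nucleoside kinases, had regions at 20% O2 for both antibodies on its promoter: HIF1A scores of 29.1 and 24.6 (ranks 93.8 and 90.05) and ARNT scores of 35.0 and 15.7 (ranks 97.4 and 78.5). At 4% O2 the replicate 1 lists had a peak there (HIF1A 34.5, ARNT 25.1), and neither replicate 2 list did. The Ndufa10 window also holds neither ACGTG nor GCGTG, which says only that these letters are not in this window. Ndufs6, a zinc-binding accessory subunit, had a HIF1A region at 20% O2 with ranks of 78.5 and 74.6, at 1179 bp from the end of Mrpl36 and 2517 bp from its own.

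Complex II, succinate dehydrogenase, also works in the citric acid cycle, and 1 of its 4 genes (25%), Sdhb, had a reproducible region. Over all genes the HIF1A share was 24.7% at 4% O2 and 4.21% at 20% O2, and the ARNT share 20.6% at 4% O2. Sdhb encodes the iron-sulphur subunit. Its HIF1A scores at 4% O2 were 59.6 and 55.8 (ranks 93.1 and 89.6), and its ARNT scores were 28.0 and 32.5 (ranks 89.6 and 75.0). At 20% O2 the HIF1A scores were 6.30 and 8.03 (ranks 21.2 and 41.8), and ARNT had a peak of 3.28 in replicate 1 (rank 4.01) and none in replicate 2. For HIF1A at both oxygen levels and ARNT at 4% O2, a region of Sdhb had the gene's own end as the nearest. The region at 4% O2, chr4:140961103-140961404, was centred 17.5 bp before the start, with GCGTG on the reverse strand at 123 and 25 bases before it. Sdhc, Sdhd and Sdha, the membrane anchors and the flavoprotein, had peaks only in single lists of a group, with HIF1A ranks in replicate 1 at 4% O2 of 58.0, 42.8 and 6.07.

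In complex III, the cytochrome bc1 complex, 3 of 8 genes had HIF1A regions at 4% O2 (37.5%, beside 24.7% of all genes) and 2 had ARNT regions (25%, beside 20.6%), with none at 20% O2. Uqcr11, a small subunit, had HIF1A scores of 59.4 and 76.6 (ranks 93.0 and 92.7) and ARNT scores of 17.9 and 150 (ranks 77.0 and 94.2) at 4% O2. That region lay 628.5 bp from the end of Mbd3, a chromatin protein gene, and 4094.5 bp from the end of Uqcr11. Uqcrq, another small subunit, had HIF1A ranks of 83.4 and 50.3 and ARNT ranks of 86.03 and 44.5 next to its own end. Uqcrh, the hinge protein, had HIF1A ranks of 80.9 and 53.1 at its higher region. It had no ARNT region, with an ARNT peak at 4% O2 in replicate 1 alone (rank 39.4). The catalytic Rieske protein gene Uqcrfs1 and the core protein genes Uqcrc1 and Uqcrc2 had no reproducible region, with HIF1A ranks in replicate 1 at 4% O2 of 38.9, 71.9 and 17.3. Uqcrb had no peak in any list.

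Complex IV, cytochrome c oxidase, had HIF1A regions at 5 of 17 genes (29.4%, beside 24.7% of all genes) and ARNT regions at 3 of 17 (17.6%, beside 20.6%) at 4% O2, close to the background. It had none at 20% O2, where 4.21% and 4.39% of all genes did. Cox7a1, the isoform of subunit 7A typical of heart and skeletal muscle, ranked highest of them, with HIF1A scores of 135 and 132 (ranks 97.8 and 96.1) and ARNT scores of 56.9 and 132 (ranks 96.6 and 93.4). Its HIF1A region, chr7:30183897-30184244, was centred 100.5 bp before the start, in a window with 3 core sequences at 53 and 25 bases before and 9 bases after it. At 20% O2 a peak in HIF1A replicate 2 scored 18.8 (rank 83.8), and the other 3 lists had none. Of the 6 isoforms typical of particular tissues in the list (Cox6a2, Cox6b2, Cox7a1, Cox7b2, Cox8b and Cox8c), Cox7a1 was the only one with a region. For HIF1A at 4% O2 that is 16.7%, beside 24.7% of all genes. No peak in any list was found for 4 of the 6, beside 47.6% of all genes. A list of 6 genes is too small to set these isoforms apart from all genes.

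The remaining complex IV regions were weaker or lay at neighbours. Cox7b had HIF1A regions at 4% O2 with ranks of 96.1 and 84.9 and of 95.2 and 90.3, lying 196 bp from the end of the magnesium transporter gene Magt1 and 41.5 bp from that of the copper transporter gene Atp7a. Cox6b1, at the surface between the monomers of the oxidase, had a HIF1A region 53 bp before its own start with ranks of 85.3 and 51.6. Cox8a had HIF1A ranks of 72.4 and 39.6, and the Cox6a1 region, with 26.7 and 23.9, lay 30 bp from the end of Gatc. Cox5b had an ARNT region, with ranks of 36.4 and 41.4, and a HIF1A peak in replicate 1 alone (rank 30.7). No region was found at the genes for Cox5a, Cox6c, Cox7a2 or Cox7c, which most tissues use.

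Genes that the choice left out give a measure of scale. Cox4i2, the low-oxygen isoform of subunit 4, had HIF1A scores of 214 and 152 (ranks 98.9 and 96.7) and ARNT scores of 54.7 and 156 (ranks 96.3 and 94.5) at 4% O2. Cox4i1, its usual counterpart, had peaks of 8.40 in HIF1A replicate 1 (rank 26.7) and 4.15 in ARNT replicate 1 (rank 6.34) and none in the other 6 lists. Ndufa4l2 had HIF1A scores at 4% O2 of 1019 and 717 (ranks 99.96 and 99.7), whereas Ndufa4, a complex IV protein despite its name, had no peak at all in the 8 lists. The Ndufa4 window nevertheless holds GCGTG, 35 bases after the start. Higd1a, which associates with respiratory supercomplexes, and Lonp1 also had regions for both antibodies at 4% O2, with mean HIF1A ranks of 99.5 and 99.5.

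In complex V, HIF1A regions at 4% O2 lay at 7 of 17 genes (41.2%, beside 24.7% of all genes) and ARNT regions at 8 of 17 (47.1%, beside 20.6%). Each antibody had 2 genes at 20% O2 (11.8%, beside 4.21% for HIF1A and 4.39% for ARNT). Atp5b, the catalytic beta subunit, had ARNT scores of 115 and 60.5 at 4% O2 (ranks 98.7 and 85.7), where Ndufv3 and Cox7a1 had higher mean ranks, and of 86.5 and 48.6 at 20% O2 (ranks 99.8 and 98.7), the highest of the 4 genes with an ARNT region there. The ARNT region at 4% O2, chr10:128082983-128083339, was centred 146 bp before the start and that at 20% O2 155 bp before it. HIF1A had no reproducible region at Atp5b at either level; the highest peaks within 5 kb scored 33.7 in replicate 1 at 4% O2 and 12.4 in replicate 2 at 20% O2, and the other 2 HIF1A lists had none. Of the 4 genes with an ARNT region at 20% O2, 1 (25%), Atp5b, also had one at 4% O2, beside 612 of 950 genes overall (64.4%). The Atp5b window holds GCGTG once, 37 bases after the start, which is beyond the end of both ARNT regions. Atp5a1, the partner subunit in the catalytic head, had no peak in any list, and its nearest HIF1A region at 4% O2 lay 5858 bp away.

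Atp5d, the delta subunit of the central stalk, had 5 HIF1A regions at 4% O2, of which the highest scored 109 and 63.0 (ranks 97.0 and 90.9). This region, chr10:80141211-80141747, was centred at -796 bp from the start, inside the annotated span of Atp5d, although the nearest gene end was that of Cbarp. HIF1A at 20% O2 had ranks of 83.7 and 94.7 there, and ARNT at 4% O2 ranks of 92.5 and 79.0. A weaker pair of regions covered the start itself (HIF1A ranks 80.4 and 86.7, ARNT ranks 86.7 and 67.1). Atp5h, subunit d of the peripheral stalk, had HIF1A scores of 124 and 59.5 in its highest region at 4% O2 (ranks 97.5 and 90.3). At 20% O2 its highest HIF1A peaks scored 25.7 in replicate 1 and 44.3 in replicate 2 (ranks 91.4 and 97.1), in different regions. The HIF1A regions of Atp5h overlap the tRNA genes n-TRcct5, n-TRcct3 and n-TRtcg4 and lie outside Atp5h. Their nearest end of a protein-coding gene is that of Mrpl58, a mitochondrial ribosomal protein gene.

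The HIF1A region of Ndufs7 at 20% O2 likewise overlapped a tRNA gene, n-TNgtt7. In all, 4 of the 10 HIF1A regions at these genes at 20% O2 lay within 1 kb of a tRNA gene (40%), beside 8.28% of such regions at all genes. Of these 4 regions 3 are neighbours at the Atp5h locus, so the share rests on 2 loci. At 4% O2 the same count was 3 of 44 (6.82%), beside 0.456%, with 2 of the 3 at Atp5h and the other at Ndufs7. The part of tRNA genes in these peaks was not tested.

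The genes for subunit c, the proton-carrying ring, have 3 copies that encode the same mature protein. Atp5g2 had 3 HIF1A regions at 4% O2, the highest with ranks of 90.7 and 78.9, and ARNT ranks of 83.0 and 71.5. Atp5g3 had a HIF1A region, with ranks of 85.3 and 41.6, and at 4% O2 an ARNT peak in replicate 1 alone (rank 51.7). Atp5g1 had an ARNT region at 20% O2 with ranks of 75.8 and 49.5, and at 4% O2 peaks in the replicate 1 lists only (HIF1A rank 70.1, ARNT rank 88.0). Each copy thus had a region in a different set of groups, though whether they differ was not tested. Elsewhere, Atp5j2 in the membrane part and Atp5o, which joins the stalk to the head, had HIF1A ranks of 88.8 and 69.7 and of 87.4 and 50.3 at their own starts. For the gamma subunit gene Atp5c1 the HIF1A ranks were 11.4 and 6.58. Atp5e and Atp5md, along with Ndufc2 of complex I, had an ARNT region at 4% O2 and no HIF1A region. At Atp5md and Ndufc2, HIF1A replicate 1 at 4% O2 did have a peak over it (ranks 53.6 and 77.9). Of the 24 genes with an ARNT region at 4% O2, 19 (79.2%) also had a HIF1A region, beside 82.0% over all genes with one.

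**Figure D4:**
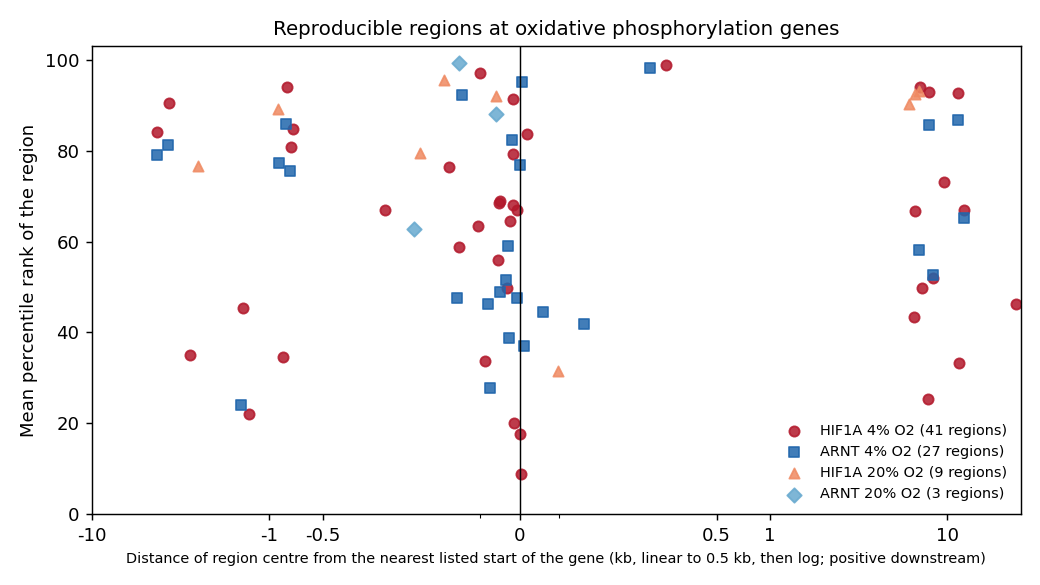
Distance of the centre of each reproducible region from the nearest listed transcription start of its oxidative phosphorylation gene (horizontal axis, linear to 0.5 kb and logarithmic beyond, positive downstream) against the mean percentile rank of the region in its 2 lists (vertical axis). Each point is a region of 1 of the 4 groups at a gene with a listed start. Of the 41 HIF1A regions at 4% O2, 20 lie within 500 bp of the start, and the highest point is Ndufv3.

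At genes with a listed start, 20 of 41 HIF1A regions at 4% O2 (48.8%) lay within 500 bp of it, beside 48.5% over all genes, with median distances of 731.5 and 565 bp. The ARNT regions at 4% O2 were within 500 bp in 16 of 27 cases (59.3%, beside 56.4%), with medians of 158.5 and 291.5 bp. At 20% O2 it was 4 of 9 HIF1A regions (44.4%, beside 33.4%), with medians of 889 and 2773.5 bp, and 3 of 3 ARNT regions (100%, beside 64.4%). Taking for each gene the edge of its nearest HIF1A region at 4% O2, Cox6a1 was the last inside the limit of 5 kb, at 4361 bp, and Cox8b, at 5139 bp, and Atp5a1 were the first outside it. Of the 76 promoter windows of these genes, 49 (64.5%) held ACGTG or GCGTG, beside 49.8% of the windows of all genes. For mitochondrial and cytosolic ribosomal protein genes the shares were 66.7% and 67.9%. Among the 22 subunit windows with a HIF1A region at 4% O2, 17 held either (77.3%, beside 84.1% over all genes with such a window). Among the 15 subunit windows that no peak of any list overlapped it was 7 (46.7%, beside 37.8%).

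A peak in at least 1 of the 8 lists was found for 70 of the 86 genes (81.4%), beside 52.4% of all genes. No gene had a peak in all 8 lists, beside 0.698% of all genes, and 4 (4.65%) had peaks in 7, beside 2.18%. The 16 without any peak were Ndufa4, Ndufa8, Ndufb1, Ndufb3, Ndufb4b, Ndufb4c, Ndufb7, Ndufb8, Ndufb11 and Ndufs5 under the complex I prefixes, Uqcrb of complex III, Cox6a2, Cox6b2, Cox7b2 and Cox8c of complex IV, and Atp5a1 of complex V. Ndufb4b and Ndufb4c are copies of Ndufb4, and reads from such copies can be hard to place, so a missing peak there is uncertain.

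Around the subunits, the assembly factors had HIF1A regions at 4% O2 at 11 of 46 genes (23.9%, beside 24.7% of all genes). ARNT regions lay at 10 of them (21.7%, beside 20.6%), so both shares were close to the background. The highest were Cox20, Atpaf2, Sdhaf1 and Coa7, with mean HIF1A ranks of 95.9, 94.2, 93.4 and 91.1. The electron carriers and regulators of respiration had regions at 11 of 17 genes for each antibody at 4% O2 (64.7%, beside 24.7% for HIF1A and 20.6% for ARNT). The first of these were Yy1, Esrra, Cycs and Nrf1, with mean HIF1A ranks of 94.9, 92.7, 90.6 and 89.1. Cycs encodes cytochrome c, and the other 3 encode transcription factors known to act on respiratory genes. The citric acid cycle genes had HIF1A regions at 4% O2 at 3 of 18 genes (16.7%, beside 24.7%), namely Mdh2, Pdhb and Ogdh. ARNT regions at 4% O2 lay at 4 of these 18 genes (22.2%, beside 20.6%). Mitochondrial ribosomal protein genes (at 4% O2, HIF1A 25 of 78 or 32.1%, ARNT 23 of 78 or 29.5%) gave shares near those of the subunit genes (37.2% and 27.9%). So did cytosolic ribosomal protein genes (36 of 86 or 41.9%, and 27 of 86 or 31.4%).

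**Figure D5:**
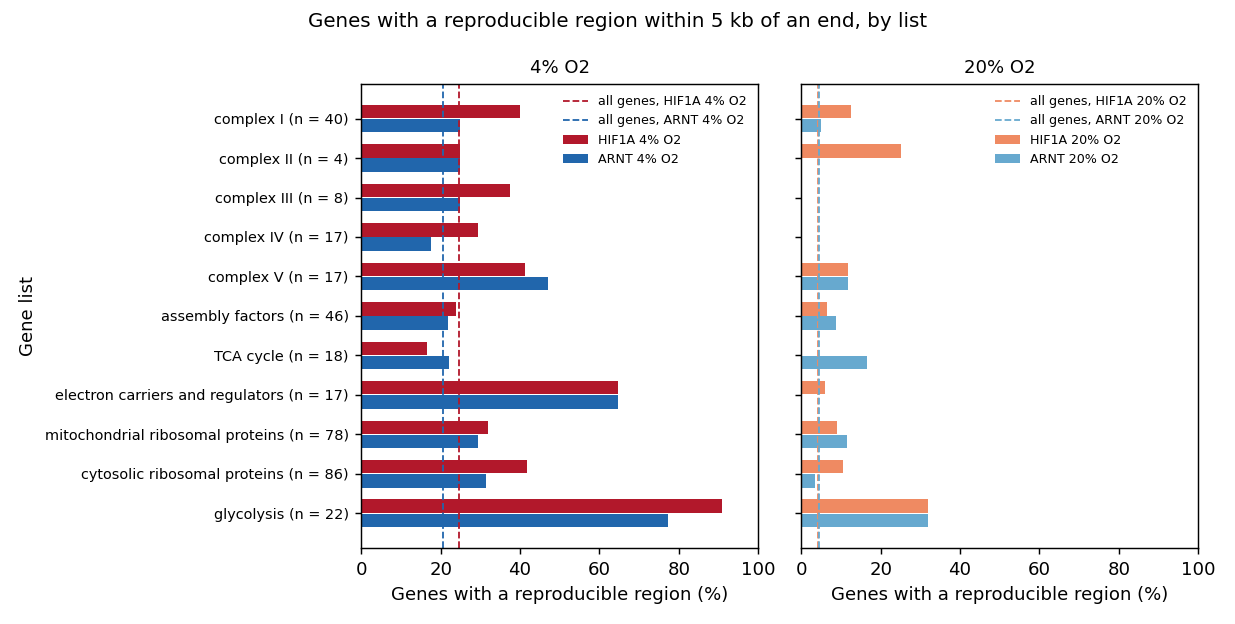
Percent of genes with a region (both lists) no more than 5 kb from an end, for the 5 respiratory complexes and 6 other gene lists, at 4% O2 (left) and 20% O2 (right), with HIF1A and ARNT as separate bars and dashed lines for all protein-coding genes. The glycolysis bar for HIF1A at 4% O2 stands for 20 of 22 genes, and those of complexes I to V for 16 of 40, 1 of 4, 3 of 8, 5 of 17 and 7 of 17.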

How the data were processed

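HIF1A and ARNT ChIP-seq peak lists of 8 samples were used, with groups and numbers from the sample titles. The 4 inputs have no list here. The submitters' processing notes name BWA, Picard, MACS2 and the build mm10; their versions were not given in the sources used here. Per the file headers and names, the authors called peaks per sample, HIF1A replicate 2 against input 5 and the others against input 4 of the same oxygen level, so lists of both antibodies share an input. The score in the deposited lists is the authors' value per peak, with no stated scale. Both HIF1A replicate 2 libraries combined reads of a pair of sequencing runs, per the labels' design text.

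Overlaps needed 1 bp. Gene ends and promoters came from RefSeq tables of GRCm38.p6 (promoters for 71 of the 86 genes). Log2 shares had 0.5 added to genes with and without a peak. Tests were two-sided exact permutation tests with Benjamini-Hochberg adjustment over 4 tests (Python 3.11.15, scipy 1.17.1). The calling of genes with a region was checked on simulated peak lists. Genes were named in order of mean rank in HIF1A at 4% O2, then the other groups, up to 30; Atp5b, Ndufa10, Atp5g1, Ndufs6, Cox5b, Atp5e, Atp5md, Ndufc2 and genes without a region were added after their values were seen, as were the Sdhb, Ndufa10, Cox7a1 and Ndufa4 promoters. The genes and lists were chosen with earlier results of these data known. A gene that the rule takes is counted but not reported here.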

Additional observations from a re-analysis of the deposited data

Results flagged for a closer look

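The mitochondrial genome encodes the subunits of complexes I, III, IV and V that the nucleus does not, and it was not part of the comparisons above. ARNT replicate 1 had 5 peaks on the mitochondrial chromosome at 4% O2 and 8 at 20% O2, which drew attention because all 4 HIF1A lists had 0 there. ARNT replicate 2 had 2 peaks at 4% O2 and 0 at 20% O2. The highest peak in both replicate 1 lists lay at bases 15893 to 16278 (4% O2, score 178, rank 99.3) and 15882 to 16287 (20% O2, score 197, rank 99.9), where the annotation has no gene. A peak over COX1 was found in these 2 lists and in replicate 2 at 4% O2. Others lay over ND4, ND5 and CYTB, and over the ribosomal RNA genes mt-Rnr2 (replicate 2 at 4% O2, rank 60.4) and mt-Rnr1 (replicate 1 at 20% O2, rank 4.65). Mitochondrial DNA is present in many copies per cell, and the part of copy number or of the input in these peaks was not tested.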

How the results depend on the processing

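The counts of genes with a region depended on requiring both lists. With a peak in either list they were 65 (HIF1A, 4% O2; 75.6%, beside 48.0% of all genes), 63 (ARNT, 4%; 73.3%, beside 42.7%), 35 (HIF1A, 20%; 40.7%, beside 22.0%) and 23 (ARNT, 20%; 26.7%, beside 14.1%), and single lists gave 32 to 65, 27 to 61, 9 to 34 and 5 to 22. With only the 1808 highest peaks of each list, 4 HIF1A and 3 ARNT genes were left at 4% O2 (4.65% and 3.49%, beside 4.21% and 3.55% of all genes). Counting only regions whose nearest end belongs to the gene, an alternative chosen after seeing the data, left 18, 14, 3 and 3 genes (20.9%, 16.3%, 3.49% and 3.49%, beside 19.5%, 15.7%, 3.32% and 3.08%), and 38 of the 68 calls of a gene in a group were kept. Within 1 kb of an end HIF1A at 20% O2 had 4 genes (4.65%, beside 2.02%), and within 20 kb ARNT at 20% O2 had 8 (9.30%, beside 8.22%). Overlap of 50% of the shorter peak and the gene span plus 5 kb kept all 68 calls, and unwidened positions kept 67.

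No test of the share passed under any setting. The difference between 4% and 20% O2 turned to -0.31 with the 1808 highest peaks, and relative to all genes to 0.093 with the gene span. The difference between HIF1A and ARNT relative to all genes turned to -0.23 with nearest ends. Without replicate 1 or 2 the 4 differences ranged from 1.12 to 2.12 (oxygen), -0.30 to -0.25 (oxygen, relative), -0.58 to 1.45 (antibody) and 0.05 to 0.40 (antibody, relative), so the antibody difference turned without replicate 2. The cause was not tested. Same-numbered lists of different groups correlated between -0.19 and 0.26 in their deviations over these genes, and not every pair exceeded 0.1, so the numbers were not taken to pair samples. Per the file headers the replicate 1 lists do share a lane, and those of an oxygen level share an input, which ARNT replicate 2 used too. With a replicate block the differences stayed at 1.62, -0.27, 0.43 and 0.22, with exact permutation p of 0.25, 0.125, 0.625 and 0.25 (smallest possible 0.125). Depth is unknown, so a missing peak does not show that a gene is unbound.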

Other observations

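Sites of other factors known to act on respiratory genes were counted in the promoter windows as letters on either strand. The palindromic NRF1 site was found in 5 of the 76 windows of the subunit genes (6.58%), beside 1.34% of all windows. CCGGAAG, a site of the ETS family that includes GABP, was found in 17 (22.4%), beside 11.7%, and in 26 of 75 windows of mitochondrial ribosomal protein genes (34.7%). CACGTG, the E-box, which contains ACGTG, was found in 7 of the subunit windows (9.21%), beside 7.91%. Among the 22 subunit windows with a HIF1A region at 4% O2, 1 held the NRF1 letters (4.55%) and 5 the ETS letters (22.7%). Over the windows of all genes with such a region the shares were 2.46% and 20.7%. These are matches of letters, not measured binding of those factors.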
